A study of Mus musculus with 60 samples.

Results

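The proteasome subunit genes were described as the rows of the colon count table whose mouse symbol begins with Psma, Psmb, Psmc, Psmd or Psme and a digit, with the immunoproteasome genes *Psmb8*, *Psmb9* and *Psmb10* left out. The rule took 42 of 27179 gene identifiers, and all 42 were among the 18057 genes that passed the filter on low counts. Of the 42, 2 encode no subunit and were taken by the rule through their symbols: *Psmc3ip*, a meiotic recombination factor, and *Psme3ip1*. The testis subunit *Psma8* and the thymus subunit *Psmb11* were close to absent, with means of 0.190 and 0.0724 CPM (counts per 1000000 counts of the library, after scaling) in naïve mice, and *Psmb11* had a count of 0 in 8 of 30 naïve and 6 of 30 CIA libraries. The other 38 genes encode subunits, activators and, in the case of *Psmd5*, *Psmd9* and *Psmd10*, chaperones that assemble the base of the 19S particle. Male DBA/1 mice of 9 to 10 weeks were given collagen-induced arthritis (CIA) by intradermal bovine type II collagen in Complete Freund's adjuvant and an intraperitoneal boost of the collagen on day 21, both given at ZT6. Naïve DBA/1 mice, which shared their cages and were given neither injection, were the controls. From each mouse a 5 mm piece of mid-colon was frozen 7 days after symptoms appeared, or at the matched time. With lights on at ZT0 and off at ZT12, 6 times of day (ZT0, 4, 8, 12, 16 and 20) were sampled with 5 mice of each treatment, giving 30 naïve and 30 CIA libraries of 1 mouse each. No adjuvant-only group was among the samples, so effects of adjuvant and of arthritis cannot be told apart.

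The proteasome is the barrel-shaped protease that degrades proteins tagged with ubiquitin. Its 20S core is built of outer rings of α subunits (Psma genes) and inner rings of β subunits (Psmb genes), of which *Psmb5*, *Psmb6* and *Psmb7* carry the active sites. The 19S particle caps the core, unfolds substrates with a ring of ATPases (Psmc genes) and recognises and deubiquitinates them with further subunits (Psmd genes), while the activators (Psme genes) open the core without ubiquitin. Subunit genes are known to be transcribed together, and in the gut the proteasome serves protein turnover in a rapidly renewing epithelium.

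Libraries held 25840240 to 61425974 counts, with a median of 44082461, and the 38 genes took 0.316 to 0.418% of them. Of the counts from 1 to 20, 73.95% were even, so the totals may count both reads of a pair, which was not tested. With the counts halved and rounded, 11 members were lower in CIA, 3 higher and 16 called at ZT12. Whole colon wall was sequenced, so fewer cells of a type and less RNA per cell cannot be told apart. The smooth muscle list was higher in CIA for 12 of 12 genes and its mean level ranged from 8.89 to 11.02 log2 CPM in naïve and from 9.69 to 11.4 in CIA. The enteric neuron list was higher for 8 of 8 (2.56 to 5.06 against 4.14 to 6.02), and the proliferation list was lower for 7 of 8 (3.86 to 6.06 against 3.32 to 5.45). Interferon-stimulated genes were lower for 8 of 12 (3.52 to 7.54 against 3.77 to 5.08), B and plasma cell genes for 3 of 8 (3.00 to 5.75 against 2.41 to 5.401) and epithelial genes for 3 of 12 (9.43 to 10.01 against 9.32 to 10.13). Every gene of these lists passed the filter on low counts. In an earlier analysis of these data 3 pairs of libraries stood apart, by interferon genes (Naive ZT4 replicate 5 and Naive ZT12 replicate 3), by clock genes (replicate 4 of each treatment at ZT4) and by skeletal muscle transcripts (Naive ZT0 replicate 5 and CIA ZT12 replicate 2). Main counts of members are also given without these pairs.

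Levels differed several-fold within each ring. Per kilobase of the principal transcript, mean levels of the 38 genes over 60 libraries ran from 9.00 to 154.2 CPM per kb, with a median of 63.4. The highest were the activator *Psme2* (154.2), the core subunits *Psmb4* (135.7) and *Psmb6* (127.5, the caspase-like active site) and *Psma7* (123.0). Of the other active sites, *Psmb7* (trypsin-like) stood at 68.3 and *Psmb5* (chymotrypsin-like) at 33.3 CPM per kb, the lowest of the β subunits other than *Psmb11*. *Psmb5* is the subunit that *Psmb8* replaces in the immunoproteasome. In the ATPase ring, where each ATPase occupies a fixed place once, levels ran from 82.5 for *Psmc5* down to 19.6 for *Psmc6*. The assembly chaperones *Psmd10* (18.5), *Psmd5* (11.7) and *Psmd9* (9.00) and the nuclear activator *Psme4* (15.99) were lowest. These levels depend on the transcript taken for length, and with the union of annotated exons *Psmb1* moved from rank 7 to rank 23.

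**Figure D1:**
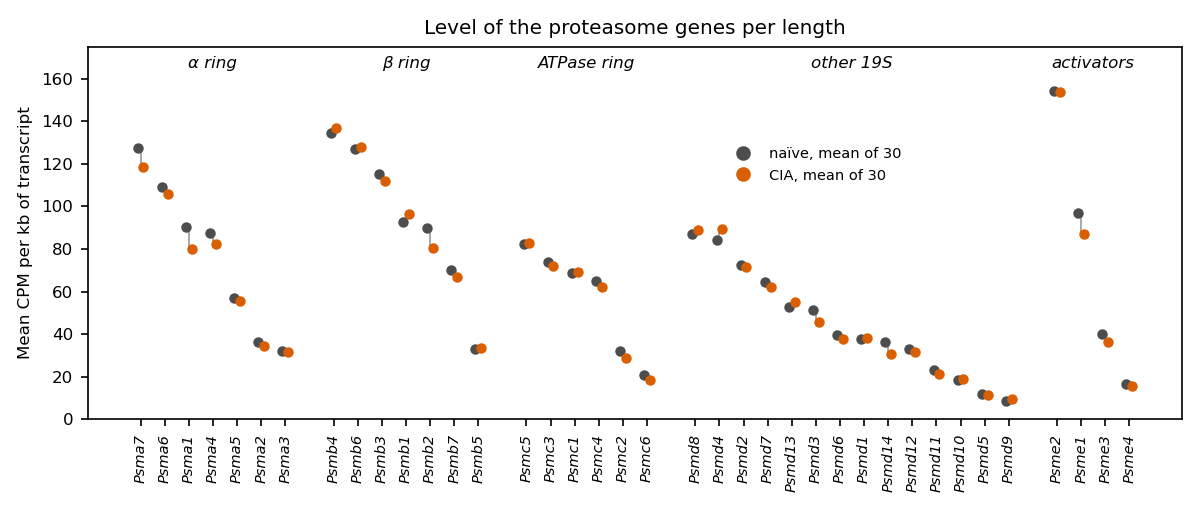
Mean CPM per kb of the principal transcript for 38 proteasome genes, grouped by role and ordered by level, with the mean of 30 naïve (grey) and of 30 CIA (orange) libraries. *Psme2* was highest and the assembly chaperone *Psmd9*, drawn with the other 19S genes, was lowest, and the 2 means of a gene lay close together beside the spread between genes.

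Over all times of day, 11 of 42 members were lower in CIA and 2 were higher (edgeR, adjusted p below 0.05 over all genes). This is 26.2% of members lower against 20.4% of all genes tested, and 4.76% higher against 17.6%. The lower share was therefore near that of all genes, and differences were small. The median absolute log2 fold change of the 38 genes was 0.06 against 0.15 over all genes, and their median log2 fold change was -0.05 against -0.02. All genes tested include genes close to absent, such as *Psmb11*. The comparisons with them, here and for the rhythms below, were not matched for level. Without the pairs of libraries that stood apart, 11 or 12 members were lower and 2 or 3 higher. With the smooth muscle score of each library as a covariate 3 members were lower, with the proliferation score 4, and without the mice of ZT12 4. These covariates differ between treatments, and their part in the result was not tested.

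*Psmd14*, the 19S deubiquitinase that removes ubiquitin chains from substrates, had the largest difference of the 38 genes. The gene (Entrez 59029) lies at chr2:61711694-61800376 of GRCm38.p6. It ranged from 44.2 to 71.8 CPM in naïve mice (median 56.3) and from 36.8 to 57.5 in CIA mice (median 47.6). The ranges overlapped, with the CIA values lying lower. The log2 fold change was -0.26 (SE 0.05, adjusted p = 6.03e-05 by edgeR), and it was called under 60 of 60 omissions of a single library and 20 of 20 other alternatives. In the 19S lid, *Psmd3* (110.5 ± 11.9 CPM in naïve and 98.2 ± 11.6 in CIA, SD, n = 30) and *Psmd11* (65.8 ± 8.16 and 60.4 ± 6.50), both scaffold subunits of the lid, were also lower, by -0.17 and -0.12 log2. *Psmd3* lost the call with the proliferation score. That of *Psmd11* was lost with either the proliferation or the smooth muscle score and without the mice of ZT0, ZT12 or ZT20. The genes that were higher were *Psmd4*, a ubiquitin receptor of the 19S particle (112.3 ± 9.54 and 118.8 ± 8.79 CPM, log2 fold change 0.08), and the chaperone *Psmd9* (22.4 ± 2.23 and 24.3 ± 2.09, log2 fold change 0.12). Both lost the call with the proliferation score, and *Psmd4* also with the smooth muscle score and without the mice of ZT8, ZT16 or ZT20.

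Of the ATPases, *Psmc2* (chr5:21785275-21803787) and *Psmc6* (chr14:45329823-45349074) were lower in CIA. *Psmc2* ranged from 47.5 to 69.1 CPM in naïve (median 59.4) and from 42.3 to 60.6 in CIA (median 51.3). The log2 fold change was -0.15 (SE 0.04, adjusted p = 0.0015 by edgeR), and it was likewise called under 60 of 60 omissions and 20 of 20 alternatives. *Psmc6* ranged from 32.4 to 57.6 CPM in naïve (median 45.8) and from 34.7 to 48.7 in CIA (median 41.7), which gave -0.14 on the log2 scale (SE 0.04, adjusted p = 0.00718 by edgeR). The highest naïve values of *Psmc6* were above all CIA values, while the lowest values of both treatments were alike. The call of *Psmc6* was lost with the proliferation or smooth muscle score and without the mice of ZT12. The other 4 ATPases lay between -0.06 and 0.01 and were not called.

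In the 20S core, the α subunits *Psma1* (log2 fold change -0.17), *Psma7* (-0.10) and *Psma4* (-0.09) and the β subunit *Psmb2* (-0.16) were lower in CIA. *Psma1* ranged from 86.8 to 141.2 CPM in naïve (median 104.1) and from 81.3 to 121.6 in CIA (median 94.6), with an adjusted p = 0.000789 by edgeR. It was lower in CIA at the median although its ranges overlapped over most of their length, and the call was lost with the smooth muscle score. *Psmb2* ranged from 59.3 to 105.0 CPM in naïve (median 76.5) and from 53.4 to 86.5 in CIA (median 68.6). *Psmb2*, *Psma7* and *Psma4* lost the call with the proliferation score, with the smooth muscle score and without the mice of ZT12. That of *Psma7* was also lost without the mice of ZT4 and without CIA ZT12 replicate 3, and *Psma4* was called in 13 of 20 alternatives. *Psmb1*, a β subunit with no active site, was at 163.2 ± 14.3 CPM in naïve and 169.6 ± 14.01 in CIA and did not pass (0.06 log2, SE 0.03). The active-site subunits did not pass either: *Psmb5* was at 29.8 ± 3.53 CPM in naïve and 30.1 ± 3.83 in CIA, *Psmb6* at 101.3 ± 7.08 and 102.1 ± 8.45, and *Psmb7* at 81.1 ± 8.31 and 77.4 ± 6.37 (SD, n = 30). Their log2 fold changes were 0.01 (SE 0.05), 0.01 (SE 0.03) and -0.07 (SE 0.04).

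Among the activators, *Psme1* and *Psme4* were lower in CIA. *Psme1* (chr14:55578494-55581527) encodes a subunit of the interferon-inducible activator of the core. It ranged from 73.3 to 181.9 CPM in naïve (median 103.3) and from 79.3 to 116.0 in CIA (median 97.4), and differed by -0.15 log2 (SE 0.05, adjusted p = 0.0223 by edgeR). The naïve maximum came from ZT4, the time of the highest interferon score. It was called in 13 of 20 alternatives, and not without the interferon pair of libraries or with the interferon score. The call was also lost without any 1 of CIA ZT12 replicate 3, CIA ZT8 replicate 4 and Naive ZT4 replicate 4. Its partner *Psme2* was at 148.6 ± 25.5 CPM in naïve and 148.0 ± 14.4 in CIA (log2 fold change -0.01, SE 0.05). *Psme4*, the activator that acts in the nucleus, ranged from 85.1 to 129.2 CPM in naïve (median 108.2) and from 84.0 to 115.6 in CIA (median 101.2), with a log2 fold change of -0.10 (SE 0.03). Its call was lost with the proliferation or smooth muscle score, without the mice of ZT12 or ZT20, and without any 1 of CIA ZT12 replicate 3, CIA ZT8 replicate 4 and Naive ZT4 replicate 4. *Psme3*, the nuclear activator built of a single kind of subunit, ranged from 78.7 to 139.6 CPM (median 108.5) against 72.9 to 129.1 (median 97.6) and just missed the threshold (-0.13 log2, SE 0.05, adjusted p = 0.0523 by edgeR).

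**Figure D2:**
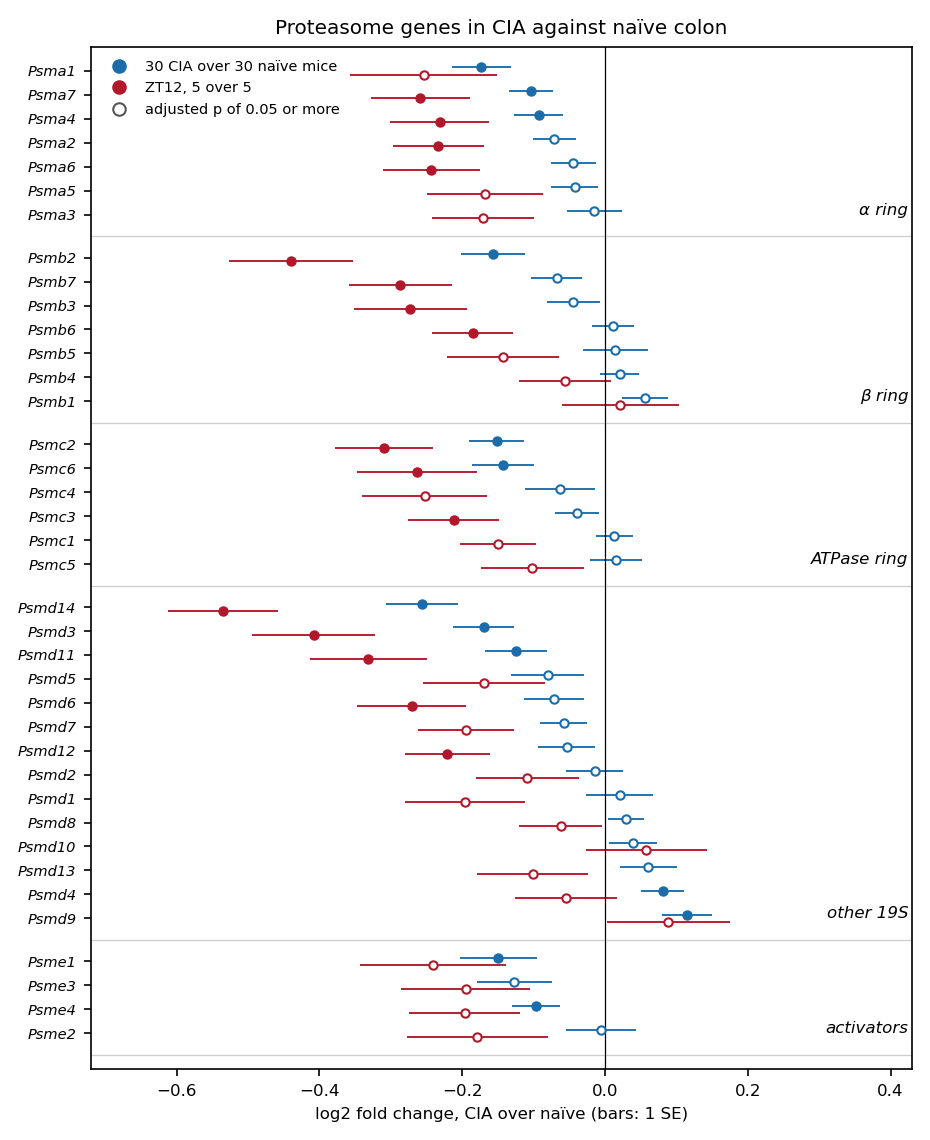
Log2 fold change of CIA over naïve for 38 proteasome genes by role, over all times (blue, 30 against 30 mice) and at ZT12 (red, 5 against 5), with bars of 1 SE and filled points for an adjusted p below 0.05. The ZT12 values lie left of 0 for all but *Psmb1*, *Psmd10* and *Psmd9*, and left of the values over all times for most genes.

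Many of the genes followed the time of day, and in the same phase. In naïve mice 23 of 42 members were rhythmic over 24 h (54.8% against 35.4% of all genes, edgeR), and 21 of the 23 peaked in the dark phase, which is 50% of members against 18.2% of all genes. In CIA mice 22 were rhythmic (52.4% against 29.6%), *Psmc3ip* included, and all 22 peaked in the dark phase (52.4% against 14.8%). Amplitudes were small. On the log2 scale from mean to peak, the median was 0.15 over the 23 genes rhythmic in naïve against 0.24 over all genes rhythmic there, and 0.13 over 21 in CIA, without *Psmc3ip*, against 0.22. Without the pairs that stood apart, 20 to 24 members were rhythmic in naïve and 21 or 22 in CIA.

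By role, 9 of 14 Psmd genes, 4 of 6 ATPases, 4 of 8 α genes, 3 of 8 β genes and 3 of 4 activators were rhythmic in naïve mice. In CIA mice the counts were 10, 4, 1, 5 and 1. These are calls made in each treatment alone, and 0 of 42 members passed the test of a difference in rhythm between treatments. The strongest rhythm by its p in naïve mice was that of *Psmd12*, a scaffold subunit of the lid. At ZT8 its values were 50.8, 53.8, 56.9, 51.99 and 53.6 CPM in naïve mice, and at ZT20 they were 68.3, 73.2, 70.2, 73.3 and 67.9. No ZT8 value reached the ZT20 values. The fitted peak was at ZT17.0 (SE 0.54 h) with an amplitude of 0.19 (SE 0.03) in naïve, and at ZT16.9 (SE 0.89 h) with an amplitude of 0.12 (SE 0.03) in CIA. *Psmd2*, the largest contributor of counts among the Psmd genes, did not pass for level and was rhythmic in both treatments, at 214.2 ± 23.7 CPM in naïve and 212.1 ± 20.9 in CIA (SD, n = 30), with peaks at ZT19.4 (SE 0.73 h) and ZT19.1 (SE 0.75 h). The chaperone *Psmd5* had the largest amplitude of the rhythmic genes in naïve mice, 0.24 (SE 0.04), with its peak at ZT19.0.

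Among the active sites, *Psmb5* was at 23.5, 25.4, 25.6, 28.5 and 24.8 CPM in naïve mice at ZT8 and at 30.9, 33.9, 34.6, 39.9 and 29.97 at ZT20. In CIA mice it was at 30.1, 29.2, 26.9, 22.9 and 25.7 at ZT8 and at 38.4, 33.7, 32.8, 34.3 and 34.6 at ZT20. In both treatments every ZT20 value was above every ZT8 value. The peaks were at ZT20.2 (SE 0.71 h) and ZT20.7 (SE 0.67 h), with amplitudes of 0.17 and 0.18 (SE 0.03 each). *Psmb7* passed in both treatments with amplitudes of 0.11, and *Psmb6* passed in CIA (amplitude 0.11) but not in naïve (0.07), with an unadjusted p of 0.291 for the difference between treatments. In the α ring, *Psma3* had the largest amplitude in naïve mice among the rhythmic genes, 0.15 (SE 0.03, peak ZT18.5), while *Psma1*, *Psma5* and *Psma7* were put in the arrhythmic class.

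*Psme1* and *Psme2* did not share this phase. In naïve mice the fitted peak of *Psme1* was at ZT7.4 (SE 0.79 h, amplitude 0.21) and that of *Psme2* at ZT9.1 (SE 1.27 h, amplitude 0.14), in the light. The naïve means at ZT4, ZT8 and ZT12 were 130.4, 111.0 and 118.2 CPM for *Psme1* and 171.6, 140.1 and 170.6 for *Psme2*. For both genes the ZT8 mean was thus below those of ZT4 and ZT12, which a single cosine cannot follow. In CIA neither gene passed, with amplitudes of 0.10 and 0.09. The difference in rhythm between treatments did not pass for either, with unadjusted p of 0.0855 and 0.402. At ZT4 the highest naïve library for *Psme1* was replicate 5 of the interferon pair, at 181.9 CPM, and the ZT4 mean of 130.4 CPM was 117.5 without it. Without that pair *Psme1* was still rhythmic, with an amplitude of 0.18 (SE 0.04) and its peak at ZT7.8 (adjusted p = 0.00101 by edgeR). *Psme2* was then no longer called (amplitude 0.11, SE 0.04, peak ZT10.1, adjusted p = 0.0703 by edgeR). *Psme3* peaked in the dark with the other subunits, at ZT18.5 in naïve and ZT17.6 in CIA. The interferon list had its highest mean level in naïve mice at ZT4 and ZT12 (5.70 and 5.19 log2 CPM, against 4.00 at ZT20). Each of these means holds 1 library of the interferon pair, and without the pair they were 5.24 and 4.71, the latter no higher than the 4.72 of ZT8. Of its 12 genes, 11 were rhythmic in naïve and 2 in CIA, and without the pair 11 and 6. Its part in the *Psme1* and *Psme2* rhythms was not tested.

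Model selection put 27 of 42 members in the class with the same rhythm in both treatments (64.3% against 34.7% of all genes) and 9 in the arrhythmic class (21.4% against 35.7%), and 5 took no class. Without the pairs that stood apart the class of same rhythm held 28 or 29. At a weight of at least 0.8 it held 21, and by Akaike weights 18. A single gene, *Psmc6*, took the class of rhythm lost in CIA (2.38% against 4.65%), and 0 took the classes gain (2.40% of all genes) and change (0.233%). *Psmc6* in naïve mice was at 43.4, 34.8, 44.2, 41.4 and 38.7 CPM at ZT8 and at 57.6, 56.1, 50.4, 50.2 and 44.7 at ZT20. In CIA mice it was at 44.3, 43.1, 35.9, 41.97 and 38.7 at ZT8 and at 45.4, 40.8, 42.3, 48.7 and 44.8 at ZT20. The naïve groups did not overlap and the CIA groups did. Its amplitude was 0.22 (SE 0.03) in naïve and 0.08 (SE 0.03) in CIA. The test of the difference itself did not pass over all genes (adjusted p = 0.731 by edgeR, from an unadjusted value of 0.00812), and the class was not kept without the clock pair of libraries. By that test 0 of 42 members differed in rhythm (0.0222% of all genes did). At an unadjusted p below 0.05, 1 member, *Psmc6*, passed (2.38%), against 6.51% of all genes.

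**Figure D3:**
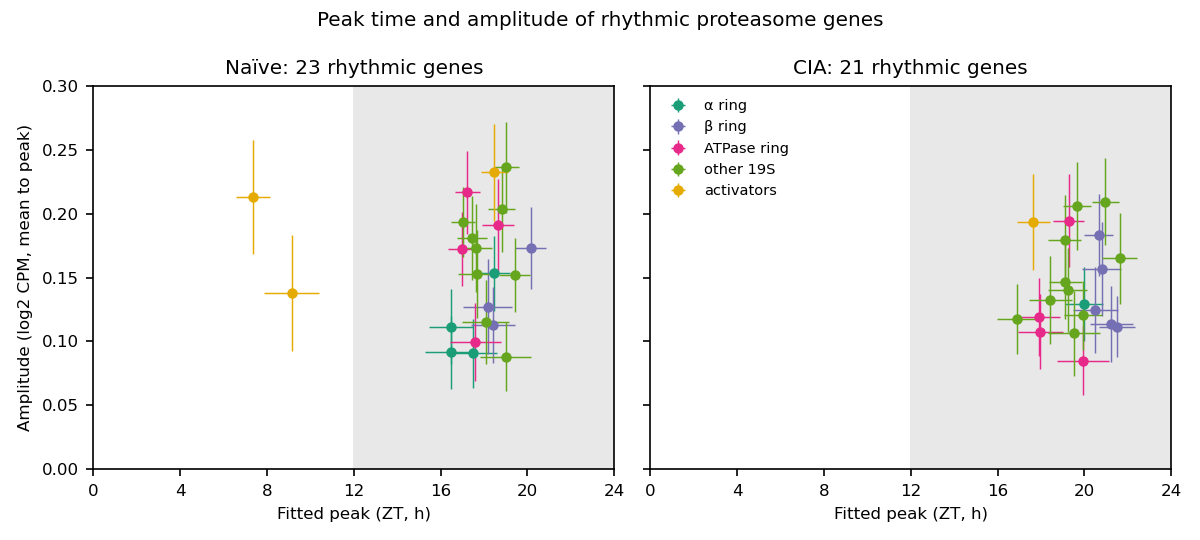
Fitted peak time (ZT in hours, dark phase shaded) against amplitude (log2 CPM, mean to peak) of the proteasome genes rhythmic in naïve (left, 23 genes) and in CIA mice (right, 21 genes), coloured by role, with bars of 1 SE. All but *Psme1* and *Psme2* in naïve mice fall in the shaded dark phase.

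For the 17 members rhythmic in both treatments, peaks lay between ZT17.0 and ZT20.2 in naïve and between ZT16.9 and ZT21.2 in CIA. Of the 17, 14 peaked later in CIA (82.4%), against 61.2% of the 3632 genes rhythmic in both. The median shift was 0.95 h later, against 0.39 h over those 3632 genes. Regardless of direction the median shift was 0.95 h against 0.98 h, so in size it was near that of all genes. *Psmb7* shifted by 2.84 h (from ZT18.4 to ZT21.2, SE of the shift 1.42 h), *Psmb2* by 2.63 h (SE 1.43 h), *Psmd14* by 2.15 h (SE 0.89 h) and *Psmd6* by 2.07 h (SE 1.37 h). *Psme3*, *Psmd2* and *Psmd12* peaked earlier, by at most 0.82 h. The shift of 1 of the 17, *Psmd14*, was more than 2 SE, and those of 11 were within 1 SE. None of the 17 passed the test of a difference in rhythm, with a lowest unadjusted p of 0.0823.

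Most calls between treatments fell at ZT12, as the lights went off. There 16 of 42 members were lower in CIA (38.1%, against 6.42% of all genes) and 0 were higher (edgeR, 5 against 5 in a fit of all 60 libraries). With the proliferation score of each library as a covariate 1 member was called at ZT12, and in a fit of the 10 libraries of ZT12 alone 4 were. Without the interferon, clock and skeletal muscle pairs the counts were 12, 16 and 20, without CIA ZT12 replicate 3 the count was 8, and without CIA ZT12 replicate 4 it was 7. At ZT20, 2 were lower (4.76% against 6.88%), *Psmc2* and *Psmd14*, and 2 were called without each of the pairs. At ZT0, ZT4, ZT8 and ZT16, 0 members were called, against 0.0222, 0.858, 0.0332 and 0.00554% of all genes in either direction. The median log2 fold change of the 38 genes was -0.20 at ZT12, against -0.01 over all genes, and at the other times it lay between -0.05 and 0.06. The test that the treatment difference varied with time called 0 members and 0% of all genes, with a lowest adjusted p of 0.965 by edgeR. At an unadjusted p below 0.05 it took 10 members (23.8%), against 4.52% of all genes. So a difference particular to ZT12 was not shown for any single gene.

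Around ZT12 the mean level ran as follows from light into dark. The mean of the 38 genes in naïve mice was 6.28 ± 0.07 log2 CPM at ZT8 and 6.50 ± 0.08 at ZT12 (SD, n = 5). In CIA mice it was 6.33 ± 0.08 at ZT8, 6.31 ± 0.05 at ZT12 and 6.46 ± 0.09 at ZT16. The naïve mice at ZT12 lay between 6.41 and 6.59 and the CIA mice between 6.23 and 6.35, with no overlap, while at ZT16 the groups overlapped (6.34 to 6.61 and 6.37 to 6.60). The naïve mean was thus at its dark-phase level by ZT12 and the CIA mean by ZT16. The mice of each time are different mice, so this is no course within an animal, and it was given no test.

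**Figure D4:**
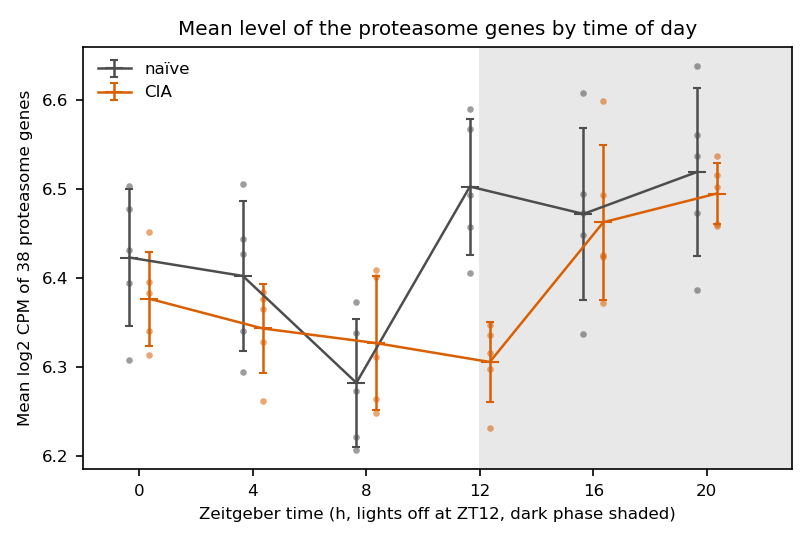
Mean log2 CPM of 38 proteasome genes in each library (points) by zeitgeber time, with the mean and SD of 5 mice for naïve (grey) and CIA (orange). At ZT12 the naïve mice lie between 6.41 and 6.59 and the CIA mice between 6.23 and 6.35, and at the other times the groups overlap.

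The genes lower at ZT12 came from every ring: *Psma2*, *Psma4*, *Psma6* and *Psma7*, then *Psmb2*, *Psmb3*, *Psmb6* and *Psmb7*, the ATPases *Psmc2*, *Psmc3* and *Psmc6*, and the Psmd genes *Psmd3*, *Psmd6*, *Psmd11*, *Psmd12* and *Psmd14*. None of the activators passed, although their log2 fold changes lay between -0.24 and -0.18. *Psmd14* was at 56.8, 56.7, 54.2, 60.5 and 52.99 CPM in naïve mice and at 38.1, 42.2, 39.8, 37.1 and 36.8 in CIA mice. The groups were well apart and differed by -0.54 log2 (SE 0.08, adjusted p = 0.000108 by edgeR). At ZT20 it was at 59.6, 71.8, 65.3, 69.3 and 66.8 against 54.7, 53.7, 53.5, 57.5 and 48.6, again without overlap (-0.31, SE 0.08). Such a separation at ZT20, with every CIA value below every naïve value, was found for 2 of 42 members, *Psmd11* and *Psmd14*. Over all genes it was found for 1241 of 18057 (6.87%).

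*Psmb2* at ZT12 was at 83.1, 85.5, 82.6, 87.5 and 74.6 CPM in naïve mice against 61.5, 66.03, 64.3, 53.4 and 59.5 in CIA mice. All CIA values were below all naïve values, with a log2 fold change of -0.44 (SE 0.09). *Psmd3* was at 109, 114, 116, 109 and 111 against 96.1, 95.1, 81.6, 73.4 and 74.7 CPM, again without overlap (-0.41, SE 0.09). *Psmc2* was at 66.2, 66.8, 60.3, 67.4 and 58.6 in naïve mice and at 47.8, 59.6, 49.7, 50.6 and 49.9 in CIA mice (-0.31, SE 0.07). A single CIA mouse, replicate 2, whose library is of the skeletal muscle pair, reached the naïve values.

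Of the active sites, *Psmb7* was at 85.0, 88.0, 86.0, 89.0 and 73.3 CPM in naïve mice at ZT12 and at 69.3, 75.3, 67.2, 63.8 and 69.8 in CIA mice (log2 fold change -0.29, SE 0.07, adjusted p = 0.00898 by edgeR). The groups overlapped through 1 naïve mouse. *Psmb6* was at 95.04, 114, 108, 104 and 100 against 96.1, 94.4, 87.6, 86.4 and 93.1 CPM (-0.19, SE 0.06, adjusted p = 0.0285 by edgeR). *Psmb5* was at 32.2, 30.7, 26.9, 27.5 and 26.4 against 26.6, 26.1, 26.9, 25.4 and 25.1 CPM and did not pass (-0.14, SE 0.08). Of all 42 members, 8 had every CIA value below every naïve value at ZT12, against 842 of all 18057 genes (4.66%). The 8 members were *Psma6*, *Psmb2*, *Psmc4*, *Psmc6*, *Psmd3*, *Psmd6*, *Psmd11* and *Psmd14*. *Psmc4* was not called, at 91.6, 100.7, 93.6, 98.2 and 96.3 CPM against 80.5, 86.5, 85.0, 71.3 and 80.0 (-0.25 log2, SE 0.09, adjusted p = 0.0549 by edgeR).

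Other values moved with the ZT12 difference. The proliferation list, whose genes mark dividing cells, had a median log2 fold change of -0.86 at ZT12, with 6 of 8 genes lower, and its mean level was between 4.34 and 4.87 log2 CPM in the naïve mice and between 3.32 and 4.11 in the CIA mice at that time. Adding the smooth muscle score to the fit gave 15 members called at ZT12, against the 1 with the proliferation score. The part of cell division in the ZT12 difference was not tested.

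**Figure D5:**
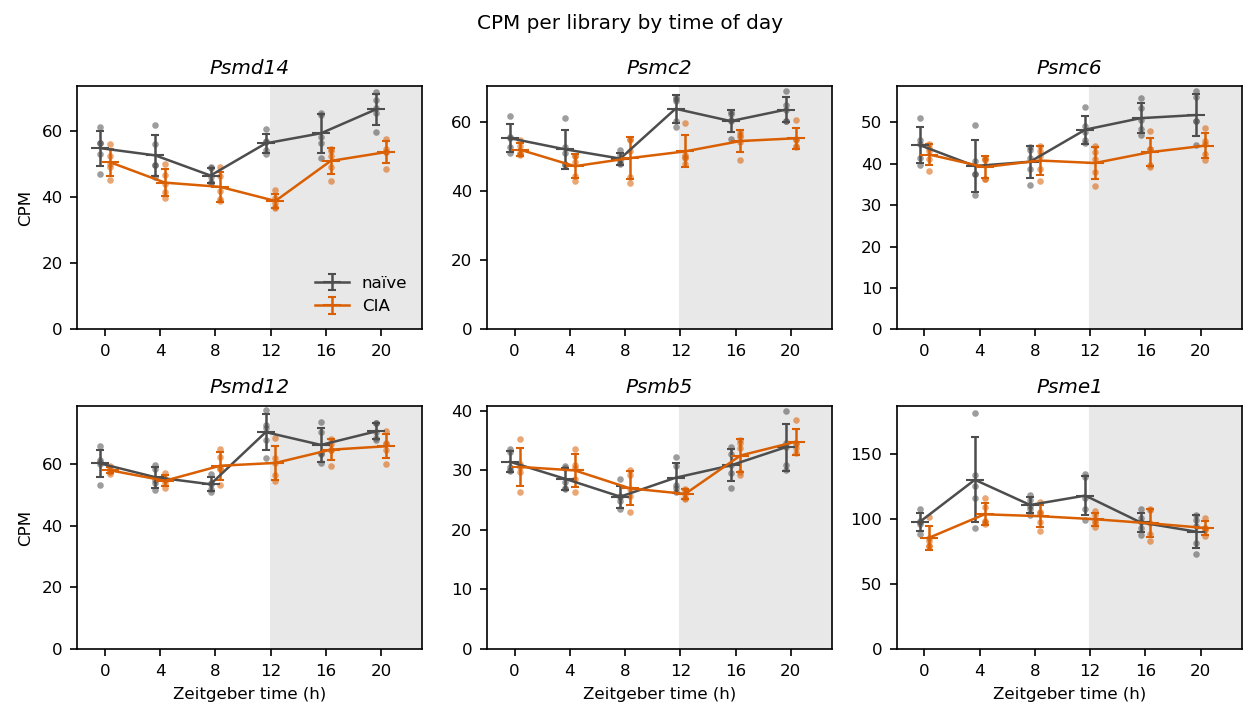
CPM per library by zeitgeber time for 6 genes, with the mean and SD of 5 mice for naïve (grey) and CIA (orange). *Psmd14* is lower in CIA without overlap at ZT12 and ZT20, the fitted amplitude of *Psmc6* is 0.22 (naïve) against 0.08 (CIA), *Psmb5* peaks at ZT20.2 and ZT20.7, and *Psme1* is highest in naïve mice in the light.

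Genes that work with the proteasome gave mixed differences over all times. Of 14 tested genes for assembly and associated factors, 3 were higher in CIA and 3 lower. *Sem1*, the smallest lid subunit, (log2 fold change 0.12), *Akirin2*, which carries proteasomes into the nucleus (0.11), and *Zfand5* (0.17), which activates the proteasome, were higher. The core chaperone *Psmg1* (-0.12), the deubiquitinase *Usp14* (-0.12) and *Txnl1* (-0.13), a thioredoxin on the 19S particle, were lower. *Nfe2l1*, the transcription factor that induces the subunit genes when proteasome activity falls, was at 249.2 ± 17.4 CPM in naïve mice and did not pass (log2 fold change -0.02, SE 0.02). Of 8 genes of this axis, *Nfe2l1* included, 3 were lower, namely the related factor *Nfe2l2* (-0.25), the protease *Ddi2* that cleaves *Nfe2l1* (-0.32) and the segregase *Vcp* (-0.14).

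Of 11 genes of ubiquitin supply and shuttling 4 were lower in CIA and 0 higher, among them the activating enzyme *Uba1* (log2 fold change -0.19). The CCT chaperonin, a folding machine with no part in degradation, was lower in 4 of 8 genes over all times and in 4 of 8 at ZT12, where its median log2 fold change was -0.22. The immunoproteasome genes were lower for 2 of 3, *Psmb8* by -0.49 (SE 0.17) and *Psmb9* by -0.41 (SE 0.13), while *Psmb10* did not pass (-0.14, SE 0.08). The values of *Psmb8* varied widely in naïve mice, at 49.5 ± 31.9 CPM (SD, n = 30).

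Promoter sequence was compared as a shared feature, since the rhythmic genes peaked at like times. RefSeq windows of GRCm38.p6 from 250 bases before to 50 after the start were found for 32 of the 38 genes. The antioxidant response element core TGACNNNGC, which *Nfe2l1* and *Nfe2l2* are known to bind, was present on either strand in 6 of 32 (18.8%), against 13.99% of all 27025 genes with a window. The CCAAT box was present in 12 of 32 (37.5% against 41.1%) and the E-box CACGTG, which clock factors bind, in 3 of 32 (9.38% against 8.09%). These shares were near those of all genes. The interferon-type core GAAANNGAA, added after the values were seen, was present in 6 of 32 (18.8% against 9.76%). These were *Psmb3*, *Psmb4*, *Psmc2*, *Psmd4*, *Psmd9* and *Psme1*. In *Psme1* it began 10 bases after the start, and the window of *Psme2* held none. The 30 bases or fewer around the antioxidant element are shown for all 6 genes. Of the 6, 3 were rhythmic in naïve mice (*Psmb5*, *Psmc6* and *Psmd12*), where 23 of the 38 genes (60.5%) were. *Psmd9* was one of the genes higher in CIA. Each sequence is read 5′ to 3′ along the gene, with the motif, or its reverse complement, in capitals.
*Psmb5* (chr14:54618023-54618052, - strand): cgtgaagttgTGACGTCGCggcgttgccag
*Psmb6* (chr11:70525338-70525367, + strand): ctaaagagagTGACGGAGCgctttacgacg
*Psmc6* (chr14:45329587-45329616, + strand): ccagccagtaGCTAAGTCAggcattgctca
*Psmd12* (chr11:107479278-107479300, + strand): tctGCTGTGTCAcatttgccccc
*Psmd9* (chr5:123228149-123228178, + strand): atctagccggTGACCCCGCccacttccaag
*Psme4* (chr11:30771758-30771787, + strand): cgctgcggctGCAGCGTCAccagaagagcc
Counted from the transcription start, the element began at -47 in *Psmb5*, -9 in *Psmb6*, -7 in *Psme4*, -31 in *Psmd9*, -227 in *Psmc6* and -247 in *Psmd12*. The E-box was found in *Psma4*, *Psmd9* and *Psme3*. Of these, *Psma4* and *Psme3* were rhythmic in naïve mice, as were 23 of the 38 genes, and *Psmd9* was arrhythmic. A match of letters is not a site that was shown to be bound.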

How the data were processed

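Mid-colon RNA of 60 mice was sequenced as stranded paired-end libraries. Per the labels and the study's methods, the authors used bcl2fastq (2.17.1.14) for demultiplexing, Trimmomatic (0.36) for trimming and STAR (2.5.3) for alignment against mm10, that is GRCm38, and Rsubread counted reads per Entrez gene. Raw counts were used as deposited by the authors. How strand and reads shared with pseudogene copies were handled is not given in the sources used here, so subunits with close copies are uncertain.

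In R 4.3.3, genes were kept by filterByExpr of edgeR 4.0.16 (minimum count 10, total 15, 12 groups), scaled by TMM and tested by quasi-likelihood F tests (legacy form), adjusted by Benjamini-Hochberg over 18057 genes at 0.05. Treatment was the only term for levels, 12 groups gave contrasts at each time, and 24 h cosine and sine terms gave rhythms. SEs of fold changes were taken as the size over the square root of F. Rhythm classes compared 5 models of log2 CPM (prior count 2) at a Schwarz weight of at least 0.6. Amplitudes and peaks came from least squares with delta-method SEs. Lengths were those of GENCODE principal transcripts.

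Members and lists were chosen with earlier results of these data known. By rule, the active sites were named, and per role the 3 members with the smallest p for level and the 2 for rhythm in naïve mice, members of the classes loss, gain or change, and those called against the direction of the rest. Other names were given after their values were seen. Alternatives used limma 3.58.1 and DESeq2 1.42.0, and steps were tested on simulated data.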

Additional observations from a re-analysis of the deposited data

Results flagged for a closer look

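In 5 of 156 groups of 5 mice (3.21%, over 13 measures), 1 library lay apart from the other 4 by more than Dixon's critical value of 0.71, where chance alone flags about 1 group in 20. *Psma1* was at 121 CPM in CIA ZT0 replicate 3 (others 81.3 to 87.6) and at 86.9 in Naive ZT8 replicate 2 (others 99.1 to 104). *Psmb6* was at 115 CPM in CIA ZT16 replicate 5 (others 100 to 103). *Psmb7* was at 73.3 CPM in Naive ZT12 replicate 5 (others 85.0 to 89.0), and it is the naïve mouse through which the groups overlapped at ZT12. *Psmc2* was at 59.6 CPM in CIA ZT12 replicate 2 (others 47.8 to 50.6), a library of the skeletal muscle pair. No gene among those tested had all mice of a time point moving against those of another.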

How the results depend on the processing

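Of 1138 recomputed counts of members 1099 stayed within 1.5 times, and of 1680 recomputed fold changes of named members 1600 kept direction and side of the threshold. Members lower in CIA (11) fell to 3 with the smooth muscle score, 4 with the proliferation score and 4 without ZT12. Members higher (2) were 0 with the proliferation score and 1 without ZT8, ZT16 or ZT20. At ZT12 (16) there were 4 from that time alone and 1 with the proliferation score. At ZT20 (2) there were 1 with the interferon score and 0 with the proliferation or smooth muscle score, and at ZT4 (0) there was 1 with the interferon score or without the clock pair. The class change took 4 members by Akaike weights, and the class loss 0 by Akaike weights, at a weight of 0.8 and without the clock pair. Leaving out 1 library at a time gave 6 to 13 lower, 2 to 6 higher, 7 to 20 at ZT12, 1 to 4 at ZT20, 0 to 1 at ZT4, 20 to 27 rhythmic in naïve, 19 to 24 in CIA, 22 to 30 in the class same, 0 to 1 in gain and 0 to 1 in loss (0 without CIA ZT8 replicate 1). Without CIA ZT12 replicate 3, CIA ZT8 replicate 4 or Naive ZT4 replicate 4 the median of all genes moved up by 0.029, 0.027 and 0.030 log2, with 6 members lower without the first, 7 without the second, and 4, 6 and 4 higher. *Psma3* (-0.01) ranged from -0.025 to 0.022 when 1 library was left out and was above 0 in these 3 runs, and it turned to 0.015 with the proliferation score, 0.0011 with voom and 0.026 without ZT12. *Psmb5* turned to -0.00939 with the interferon score and *Psmb6* to -0.00486 with the smooth muscle score, and none of these reversed values passed the threshold. The cause was not tested. The counts of 0 for a difference in rhythm and for treatment by time stayed 0 in every run made of them. Same-numbered libraries deviated together (r above 0.1) in 8 of 30 pairs, so the numbers were not read as a pairing; with a replicate block 11 members were lower, 3 higher, 16 called at ZT12 and 24 rhythmic in naïve, and no count moved by over 1.5 times. The runs with scores and library pairs at single time points, those with the proliferation score, and the rhythms of *Psme1*, *Psme2* and the interferon genes without the interferon pair, were chosen after seeing the data.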
